A study of Mus musculus with 28 samples.

Results

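Macrophages sorted from the brains of wild-type (WT) mice were compared between 11-12 and 5-6 months of age. The comparison rests on 6 of the 28 RNA-seq libraries of the series, 3 at 11-12 months (replicates 2, 4 and 7) and 3 at 5-6 months (replicates 1, 2 and 6), which were chosen by their cell type, genotype and age alone. All mice were female, and each library holds the macrophages of 1 mouse. WT mice were Casp8flox/flox, that is, both copies of the gene for caspase-8 carry loxP sites but no Cre is present, so these controls of a lupus model are not free of an engineered allele. The model itself, CReCOM (CD11cCre Casp8flox/flox), deletes caspase-8 in cells in which the CD11c promoter drives Cre. The paper reports this deletion in CReCOM microglia but not in the macrophages that infiltrate the brain. The CReCOM macrophage libraries (3 at each age) are used here for the test of whether the age difference depends on genotype. All mice were kept under specific-pathogen-free conditions and had been through behavioral testing before their brains were perfused, freed of meninges, digested and sorted for CD11b+CD64+CD45hi cells.

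Brain macrophages outside the parenchymal microglia are a mixed population, comprising long-lived cells of the brain borders and cells that descend from blood monocytes. Ly6C-high classical monocytes arise in the bone marrow and enter inflamed tissue, whereas Ly6C-low nonclassical monocytes patrol the vessel wall. Neutrophils arise from the same marrow progenitors and carry large stores of the calcium-binding proteins S100A8 and S100A9 and of granule proteins, and microglia are recognized by the purinergic receptor P2Y12 and by high production of the complement protein C1q.

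Between 4185161 and 5901911 counts were assigned to genes in the libraries at 11-12 months and between 4045036 and 4635737 in those at 5-6 months, so that 3 counts correspond to 0.508 to 0.742 CPM, the usual scaling of counts to the library total. WT replicate 7 at 11-12 months stood apart from the other libraries. It held 9556 detected genes against 12710 and 13117 in replicates 2 and 4 and 11068 to 11597 at 5-6 months, and its log2(CPM + 1) values correlated at 0.525 to 0.608 with the other 5 libraries, which correlated at 0.622 to 0.767 with each other (Pearson's r across 6272 genes, which are not independent). Results that turn on it are given with and without it.

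The transcripts of the sort markers were present at both ages. Ptprc, which encodes CD45, was at 2100, 1856 and 2180 CPM at 5-6 months and at 1508, 2252 and 1990 CPM at 11-12 months. Itgam, which encodes CD11b, was at 445, 567 and 494 CPM at 5-6 months and at 649.6, 861 and 360.5 CPM at 11-12 months. Fcgr1, the gene for CD64, was low throughout, at 21.2 to 53.9 CPM at 5-6 months and 15.3 to 33.5 CPM at 11-12 months. Casp8 was at 63.3 to 71.0 CPM at 5-6 months and at 36.3 to 64.3 CPM at 11-12 months. The age groups overlapped for all of these genes, and none passed the test (edgeR adjusted p = 0.999 for each). Of 16 markers of border macrophages, 12 did not pass the filter on low values and 4 (Lyve1, Folr2, Cd209f and Cd209b) were at 0 in all 6 libraries, so the sort held little RNA typical of that cell type. Lyz2, the lysozyme gene of monocytes and macrophages, was at 16310 to 18040 CPM at 5-6 months and at 18370 to 25330 CPM at 11-12 months.

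Of 49671 genes, 6272 passed a filter with the study's threshold, a log2(CPM + 1) over 5 for the mean of at least 1 of the 4 macrophage groups, which need not be the same genes as the study analyzed. A gene was called when edgeR's quasi-likelihood test gave it a fold over 1.5 together with a Benjamini-Hochberg adjusted p under 0.1, and a single gene, C1qa, met both, which is 0.0159% of the genes tested. It was lower at 11-12 months. No gene was called higher by edgeR. At an unadjusted p under 0.05, 174 genes were higher and 112 were lower, and with a fold over 1.5 as well, 167 (2.66%) and 107 (1.71%). The 286 genes of 6272 at an unadjusted p under 0.05 are under a share of 0.05. Such a share is reached when no gene differs, so these counts do not show an age difference. DESeq2 called 38 genes higher (0.606%) and 15 lower (0.239%) on the same counts. Without replicate 7 at 11-12 months, edgeR called 6 genes higher (0.0958%), namely S100a8, Cxcl2, S100a9, Parp2, Lcn2 and Slpi, and C1qa alone lower. Every library at 11-12 months lay above every library at 5-6 months for 5.39% of the genes and below for 6.3%. With 3 libraries against 3, such separation is common without any age difference. It was also a condition for naming part of the genes below, so a lack of overlap is given as a description and not as evidence. The median log2 fold change of the 6272 genes was 0.01 (11-12 minus 5-6 months), with 3164 positive and 3108 negative values. The genes described below other than C1qa therefore did not pass edgeR's test on all libraries, and their values are given as measurements. DESeq2 did call several of them, namely Ngp (adjusted p = 0.0060), Slpi (0.00888), Lcn2 (0.0111), Chil3 (0.0157), S100a9 (0.0506), S100a8 (0.0682) and Parp2 (0.000153) higher, and P2ry12 (0.00189), Arl4c (0.0202), Socs3 (0.0229), Id3 (0.0659), Cd14 (0.0666) and Rps24 (0.0907) lower. It also called Zfp839, Borcs8 and Gdf3 higher and Atg4c lower, which were nearly silent at 1 age in the WT libraries.

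Genes of neutrophils and of their granules were higher at 11-12 months. S100a9, which encodes a subunit of calprotectin, was at 3515, 2357 and 1967 CPM at 5-6 months and at 8738, 8809 and 4363 CPM at 11-12 months. Its partner S100a8 was at 3798, 3126 and 2737 CPM at 5-6 months and at 11240, 10870 and 4516 CPM at 11-12 months. For both genes every older library exceeded every younger one, and replicate 7 was the lowest of the older libraries. The mean CPM was 2.79-fold higher for S100a9 (log2 fold change 1.52, standard error (SE) 0.33, edgeR adjusted p = 0.456) and 2.75-fold higher for S100a8 (log2 fold change 1.49, SE 0.35, adjusted p = 0.456). Without replicate 7 the log2 fold changes were 1.76 and 1.79, with an adjusted p of 0.086 for each.

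Ngp, which encodes neutrophilic granule protein, was at 967, 902 and 815 CPM at 5-6 months and at 2862, 2445 and 1384 CPM at 11-12 months. Lcn2, the gene for the iron-scavenging lipocalin-2, was at 148, 77.0 and 70.0 CPM at 5-6 months and at 459.5, 483 and 177 CPM at 11-12 months. Slpi, which encodes a secreted inhibitor of leukocyte proteases, was at 94.9, 96.2 and 122 CPM at 5-6 months and at 397, 503 and 216 CPM at 11-12 months. None of these 3 genes overlapped between the ages, and the log2 fold changes were 1.35 (SE 0.33), 1.96 (SE 0.46) and 1.85 (SE 0.42) with edgeR adjusted p of 0.504, 0.456 and 0.456. Mmp8, the gene for neutrophil collagenase, reached 534, 458 and 207 CPM at 11-12 months, and its values of 227, 71.4 and 63.9 CPM at 5-6 months overlapped with them. Mmp9, the gene for gelatinase B, was at 49.0, 29.8 and 0.675 CPM at 5-6 months and at 284, 324 and 123 CPM at 11-12 months, without overlap.

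**Figure D1:**
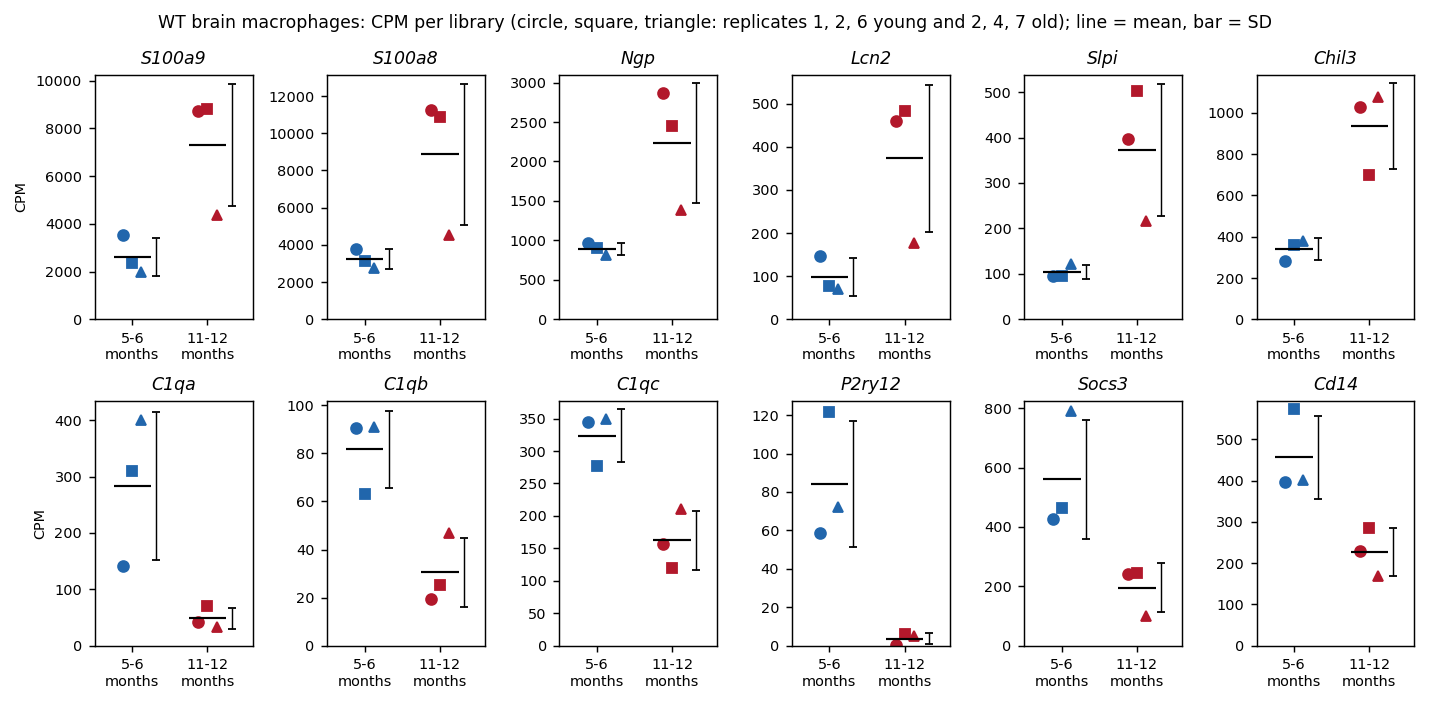
CPM of 12 genes in each WT macrophage library at 5-6 months (blue) and 11-12 months (red); points are libraries (1 mouse each), lines are means of 3 libraries and bars are SDs. For all 12 genes the points of the ages do not overlap, which was a condition for naming all but C1qb and C1qc and is no evidence for them. The older triangle (replicate 7) is nearest to the younger libraries for S100a9, S100a8, Ngp, Lcn2 and Slpi.

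Of 26 neutrophil markers, 21 passed the filter, of which 20 had a positive log2 fold change and 1 (Trem1, -0.14) a negative one. Of the 21, 3 (Cxcr2, Ly6g and Il1r2) passed through the older WT group alone, and 17 of the other 18 were positive with a median of 1.51. The median log2 fold change over the 21 was 1.52, beside 0.01 for all genes, and 10 of the 21 were higher at an unadjusted p under 0.05 with a fold over 1.5, against 2.66% of all genes. This list and those below were chosen with earlier results of these data known. Their shares beside those of all genes are therefore descriptions and not independent support. In 7 of the 21 every older library exceeded every younger one, against 5.39%. The 26 markers summed to 11250, 8144 and 7458 CPM at 5-6 months and to 31550, 29550 and 12710 CPM at 11-12 months, so replicates 2 and 4 carried the difference and replicate 7 lay just above the highest younger library. Replicate 7 was the lowest older library for 19 of the 21 genes. Without it, 22 markers passed the filter and all 22 were positive (median 1.78), of which 12 were higher at an unadjusted p under 0.05, against 2.12% of all genes, and 3 (S100a8, S100a9 and Lcn2) were called. Ly6g, named here after its values were seen because its protein defines neutrophils in flow cytometry, was at 0, 0 and 10.6 CPM at 5-6 months and at 77.9, 27.5 and 0 CPM at 11-12 months. In RNA of sorted cells, more cells of a type and more RNA per cell cannot be told apart. The study's flow cytometry gated neutrophils apart, as CD11b+Ly6G+CD45hi cells, and the macrophage gate required CD64. The part of neutrophil RNA in these values was not tested.

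The promoters of the 4 neutrophil genes whose age difference also depended on genotype (below) are shown because these genes differed together between the ages. Each is 250 bases before to 50 bases after the gene's start in RefSeq (build GRCm38.p6), 5′ to 3′ on the gene's strand, with capitals marking matches on either strand to TTGCNNAA, a core that C/EBP factors of granulocytes bind, GAGGAA, a core bound by the myeloid factor PU.1, or the TATA box TATAAA.
S100a8 (chr3:90668821-90669120, plus strand): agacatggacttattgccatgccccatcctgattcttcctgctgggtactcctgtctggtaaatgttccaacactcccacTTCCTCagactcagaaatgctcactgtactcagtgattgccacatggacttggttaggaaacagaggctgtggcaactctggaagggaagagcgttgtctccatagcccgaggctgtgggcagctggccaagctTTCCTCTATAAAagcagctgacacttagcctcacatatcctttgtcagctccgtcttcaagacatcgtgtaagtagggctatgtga
S100a9 (chr3:90695672-90695971, minus strand): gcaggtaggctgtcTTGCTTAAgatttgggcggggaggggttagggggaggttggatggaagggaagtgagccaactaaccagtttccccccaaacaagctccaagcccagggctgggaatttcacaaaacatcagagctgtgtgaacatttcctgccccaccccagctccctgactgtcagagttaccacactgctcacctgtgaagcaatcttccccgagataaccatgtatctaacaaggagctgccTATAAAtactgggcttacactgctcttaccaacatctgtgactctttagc
Ngp (chr9:110419558-110419857, plus strand): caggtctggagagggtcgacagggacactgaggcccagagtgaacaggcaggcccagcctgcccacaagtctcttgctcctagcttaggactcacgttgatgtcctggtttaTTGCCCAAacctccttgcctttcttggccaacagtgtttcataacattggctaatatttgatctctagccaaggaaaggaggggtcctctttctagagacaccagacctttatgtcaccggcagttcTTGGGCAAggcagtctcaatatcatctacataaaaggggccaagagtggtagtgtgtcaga
Lcn2 (chr2:32387690-32387989, minus strand): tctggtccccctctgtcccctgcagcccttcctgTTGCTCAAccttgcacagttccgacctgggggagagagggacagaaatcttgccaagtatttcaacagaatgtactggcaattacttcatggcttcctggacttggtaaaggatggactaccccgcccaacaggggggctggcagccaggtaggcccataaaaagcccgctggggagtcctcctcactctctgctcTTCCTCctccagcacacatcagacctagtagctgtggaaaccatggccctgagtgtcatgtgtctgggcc

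The C/EBP core occurred 2 times in the window of Ngp and 1 time each in those of S100a9 and Lcn2, and was held by 10.8% of all 32851 windows. The PU.1 core occurred 2 times in S100a8, where the later match abuts the TATA box, and 1 time in Lcn2 (28.3% of all windows). TATAAA occurred in S100a8 and S100a9 (13.6%). These are matches of letters and do not show that a factor binds. S100a8 and S100a9 are neighbors on chromosome 3 of GRCm38 (GENCODE vM21), from 90668978 to 90670035 and from 90692632 to 90695721.

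The median log2 fold change was positive for the markers of classical monocytes and negative for those of nonclassical monocytes, and none of these genes was called by edgeR. Chil3, which encodes a chitinase-like protein of classical monocytes, was at 281, 362 and 377 CPM at 5-6 months and at 1028, 696 and 1078 CPM at 11-12 months. Replicate 7 was here the highest library, and the log2 fold change was 1.496 (SE 0.38, edgeR adjusted p = 0.535). Hp, the gene for haptoglobin, was at 302 to 338 CPM at 5-6 months and at 412 to 696 CPM at 11-12 months without overlap, whereas Ly6c2, the gene for the Ly6C antigen, overlapped (448 to 773 and 669 to 1121 CPM). F10, the gene for coagulation factor X, was at 34.4 to 91.4 CPM and at 95.0 to 142 CPM. Of the 12 classical markers, 10 passed the filter, 8 with positive and 2 with negative log2 fold changes (median 0.54), and they summed to 4296, 5236 and 4617 CPM at 5-6 months and to 6591, 5904 and 5224 CPM at 11-12 months, with overlap. The median was 0.29 without replicate 2 at 11-12 months, and without replicate 7 all 10 were positive (median 0.59).

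Of the 12 nonclassical markers, which all passed the filter, 8 were negative and 4 positive (median -0.44). Ace, the gene for angiotensin-converting enzyme, was at 459.8, 406 and 409.9 CPM at 5-6 months and at 164, 239.9 and 241 CPM at 11-12 months (log2 fold change -0.95, SE 0.29, edgeR adjusted p = 0.77). Pou2f2, which encodes the transcription factor Oct-2, was at 1024, 889.6 and 1023 CPM at 5-6 months and at 475, 659.5 and 585 CPM at 11-12 months. Neither gene overlapped between the ages. Eno3, the gene for beta-enolase, overlapped (39.3 to 129.7 and 15.4 to 55.4 CPM), as did Treml4, a receptor gene of Ly6C-low monocytes (142 to 217 and 119.9 to 146 CPM). The nonclassical sum was 10020, 8073 and 7638 CPM at 5-6 months and 6131, 7695 and 3486 CPM at 11-12 months, lowest in replicate 7. Nr4a1, the transcription factor that nonclassical monocytes require, entered this and the immediate early list, and was named after its values were seen. It was at 272 CPM in replicate 7 and at 3117 to 5544 CPM in the other 5 libraries, where it was the largest part of the nonclassical sum. The low sum of replicate 7 therefore rests largely on this 1 gene.

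**Figure D2:**
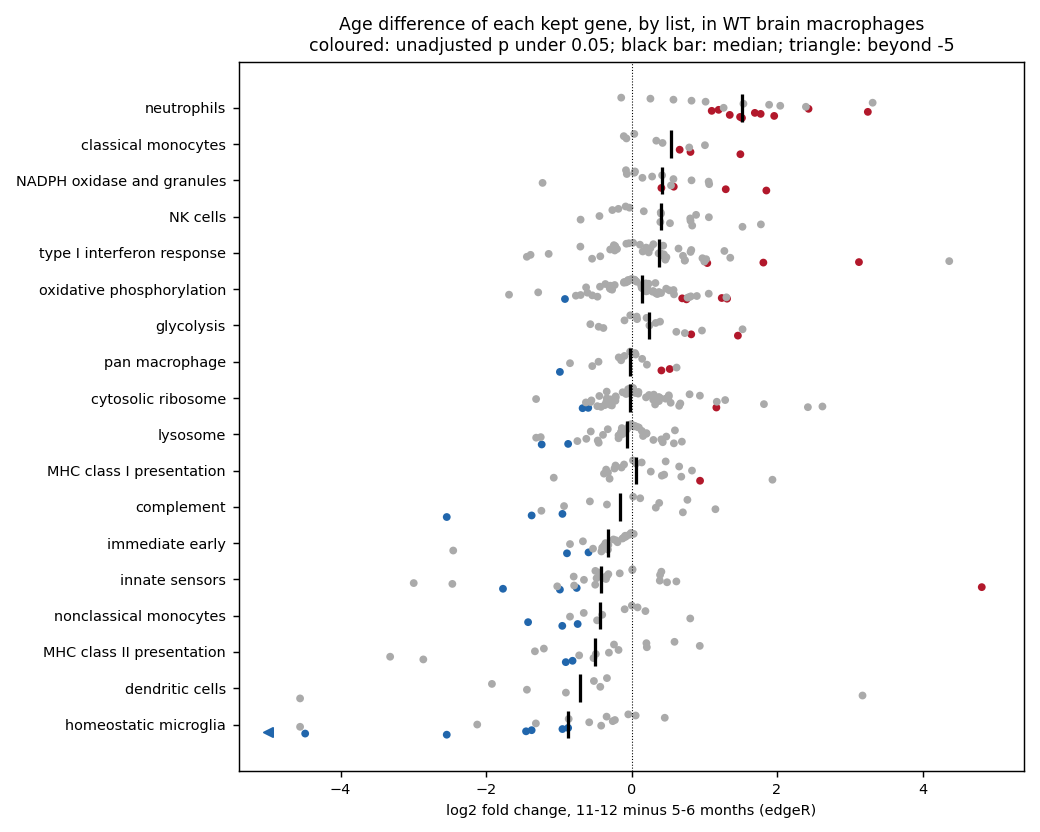
Log2 fold change (11-12 minus 5-6 months, edgeR) of each gene that passed the filter, in 18 lists, with the median as a black bar; colored points have an unadjusted p under 0.05 (red higher, blue lower). Neutrophil markers lie to the right of 0 (median 1.52) and most homeostatic microglia markers to the left (median -0.87), where the triangle is Sall3, beyond the axis.

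C1qa, which encodes a chain of C1q, the molecule that starts the classical complement pathway, fell with age. It was at 141, 310.2 and 400.0 CPM at 5-6 months and at 42.2, 69.8 and 33.5 CPM at 11-12 months, so that the highest older library lay below the lowest younger one. The mean CPM was 5.86-fold lower, with 284 ± 131 CPM (SD, n = 3) at 5-6 months and 48.5 ± 19.0 CPM (SD, n = 3) at 11-12 months, and the log2 fold change was -2.54 (SE 0.40, edgeR adjusted p = 0.0454). The call depended on single libraries. The adjusted p was 0.706 without replicate 2 at 11-12 months, 0.172 without replicate 2 and 0.453 without replicate 6 at 5-6 months, and 0.114 and 0.111 without CReCOM replicates 3 and 4 at 11-12 months, while the log2 fold change stayed between -2.88 and -2.18 when any WT library was left out. A fit of the 6 WT libraries alone gave an adjusted p of 0.534.

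C1qa, C1qc and C1qb lie side by side on the minus strand of chromosome 4, from 136880129 (C1qb) to 136898803 (C1qa), and encode the chains of the same molecule. C1qb was at 90.7, 63.0 and 91.2 CPM at 5-6 months and at 19.5, 25.3 and 46.9 CPM at 11-12 months. C1qc was at 345, 276 and 349.8 CPM at 5-6 months and at 157, 120.4 and 211 CPM at 11-12 months. Both were lower in every older library, with log2 fold changes of -1.37 (SE 0.62) and -0.95 (SE 0.44), and did not pass the test (edgeR adjusted p = 0.999 for both). C3, the central component of complement, was at 156 to 268 CPM at 5-6 months and at 202 to 436 CPM at 11-12 months, with overlap. The complement list as a whole was split, with 7 positive and 7 negative values among the 14 of 20 genes that passed the filter (median -0.16, with a range of -0.42 to 0.017 when 1 WT library was left out). C5ar2 passed through the older WT group alone, and the other 13 had 6 positive and 7 negative values (median -0.34).

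The C1q genes are also markers of microglia, and most other markers of homeostatic microglia were lower too. P2ry12, the gene for the P2Y12 receptor, was at 58.8, 121 and 72.3 CPM at 5-6 months and at 0.339, 5.97 and 4.84 CPM at 11-12 months, that is, at 1122 counts in the 3 younger and 49 counts in the 3 older libraries (log2 fold change -4.49, SE 1.11, edgeR adjusted p = 0.513). P2ry12 overlaps Med12l on the opposite strand. Sparc, which encodes a matrix protein made by microglia, was at 144, 134 and 182 CPM at 5-6 months and at 22.5, 81.7 and 61.6 CPM at 11-12 months. Sall3, which encodes a zinc-finger factor, was at 0 in all 3 older libraries and at 96.7, 0 and 73.6 CPM in the younger ones, at least 266.8-fold lower in mean CPM against a floor of 3 counts over the group, but present in 2 of 3 younger mice only.

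Of the 24 homeostatic microglia markers, 19 passed the filter, 17 of them with negative log2 fold changes. Of these, 3 (Sall3, Siglech and Fcrls) passed the filter through the younger WT group alone, so that their sign was fixed by it, and 14 of the other 16 were negative with a median of -0.73. The median over the 19 was -0.87, also with Sall3 held at its bound. With a fold over 1.5 at an unadjusted p under 0.05, 7 of the 19 were lower (6 of the other 16), against 1.71% of all genes, and in 7 every older library lay below every younger one, against 6.3%. The 24 markers summed to 6892, 6865 and 5793 CPM at 5-6 months and to 4516, 4687 and 4850 CPM at 11-12 months, without overlap. Most of this sum came from Cst3, Csf1r, Selplg and Cx3cr1. Each of these genes overlapped between the ages, with an unadjusted edgeR p from 0.057 (Cst3) to 0.84 (Csf1r). Replicate 7 was the highest of the older libraries for this sum, and without it the median was -0.92, with 6 of 19 lower against 2.09% of all genes. Whether RNA of microglia in the sort had a part in the fall of C1qa was not tested. Tmem119 and Csf1r, which mark microglia, were named after their values were seen. Tmem119 was at 20.3 to 44.7 CPM at 5-6 months and 15.3 to 37.6 CPM at 11-12 months, and Csf1r was at 945 to 1330 and 852 to 1773 CPM, both with overlap.

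Among border macrophage markers, Mrc1, the gene for the mannose receptor CD206, was at 122, 35.6 and 30.2 CPM at 5-6 months and at 4.74, 11.9 and 14.97 CPM at 11-12 months. Mgl2, which encodes a galactose-type lectin, was at 187, 172 and 266 CPM and at 61.8, 110.4 and 99.0 CPM. Both were lower in every older library, with edgeR adjusted p of 0.999. Clec10a, the gene for a related lectin, overlapped (85.8 to 129 and 14.3 to 104 CPM). F13a1, the gene for the factor XIII A chain that is also made by monocytes, was at 522 to 736 CPM and at 629.6 to 709 CPM, and its log2 fold change of 0.06 turned to -0.05 without replicate 6 at 5-6 months and to -0.03 without replicate 7 at 11-12 months. Of 8 dendritic cell markers that passed the filter out of 16, 7 were negative (median -0.71), and the list summed to 720.6 to 847.3 CPM at 5-6 months and 449.4 to 622.4 CPM at 11-12 months. Siglech passed through the younger WT group alone, so that its sign was fixed, and 6 of the other 7 were negative (median -0.52). Cd209a was at 84.8, 66.7 and 90.3 CPM at 5-6 months and at 35.6, 49.5 and 3.30 CPM at 11-12 months.

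Other genes that the naming rule gave had lower values in every older library, which the rule required of them. Socs3, which encodes a suppressor of cytokine signaling, was at 427, 465 and 790.4 CPM at 5-6 months and at 241, 246 and 100.1 CPM at 11-12 months (log2 fold change -1.498, SE 0.37, edgeR adjusted p = 0.513). Cd14, the co-receptor gene for bacterial lipopolysaccharide, was at 396, 573 and 401 CPM and at 228, 284 and 168 CPM (log2 fold change -0.98, SE 0.27, adjusted p = 0.677). Cd83, a gene of activated antigen-presenting cells, was at 470.0, 303 and 549.7 CPM and at 265, 136 and 125 CPM. Replicate 7 was the lowest library for all 3 genes. Arl4c, which encodes a small GTPase, was at 291, 335 and 276 CPM at 5-6 months and at 103, 141 and 129.9 CPM at 11-12 months (log2 fold change -1.24, SE 0.30, adjusted p = 0.495). Id3, the gene for an inhibitor of helix-loop-helix factors, was at 78.4, 184 and 42.1 CPM and at 26.3, 17.7 and 1.32 CPM. Sowahc went from 114 to 185 CPM at 5-6 months to 39.8 to 50.4 CPM at 11-12 months, and Nufip2, which encodes an RNA-binding protein, from 345 to 479 CPM to 80.3 to 244 CPM.

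Several genes that the rule named were nearly silent at 1 age in the WT libraries. Parp2, which encodes a poly(ADP-ribose) polymerase, was at 2.97, 0.647 and 2.70 CPM at 5-6 months (27 counts in all) and at 102, 41.3 and 17.6 CPM at 11-12 months (856 counts), with a log2 fold change of 4.71 (SE 1.03, edgeR adjusted p = 0.456). Zfp839 had 3 counts at 5-6 months and 571 at 11-12 months, Borcs8 had 2 and 713, and Gdf3, which encodes a TGF-beta family ligand, had 1 and 528. In the opposite direction Atg4c, the gene for an autophagy protease, had 291 counts at 5-6 months, of which 6 were in replicate 2, and 3 counts at 11-12 months. No fold is given for these 4 genes, since a group at 3 counts or fewer is at the floor. Borcs8 overlaps Mef2b on the same strand, so their reads may be shared. The low values were not seen in CReCOM macrophages of the same age. At 5-6 months these held Parp2 at 35.47 to 73.07, Zfp839 at 16.8 to 26.07, Borcs8 at 3.835 to 34.6 and Gdf3 at 1.198 to 14.26 CPM. At 11-12 months they held Atg4c at 18.88 to 66.05 CPM.

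Genes of antigen presentation by MHC class II mostly had negative log2 fold changes, and none passed the test. H2-Eb1, which encodes a class II beta chain, was at 3900, 2849 and 3958 CPM at 5-6 months and at 1389, 1371 and 2784 CPM at 11-12 months, and the lowest younger library lay just above the highest older one (log2 fold change -0.90, SE 0.33, edgeR adjusted p = 0.999). Cd74, the invariant chain gene, overlapped (1005 to 2045 and 766 to 1138 CPM), as did H2-Ab1 (1012 to 1407 and 628 to 1104 CPM). In both genes replicate 7 was the highest older library. Of 16 of 20 genes that passed the filter, 12 were negative (median -0.51, and -0.33 without replicate 4 at 11-12 months) and 2 were lower at an unadjusted p under 0.05 with a fold over 1.5, against 1.71%. H2-DMb2 passed through the younger and H2-Ob through the older WT group alone, and 11 of the other 14 were negative (median -0.51). The list summed to 13050, 10060 and 13810 CPM at 5-6 months and to 7351, 7343 and 10650 CPM at 11-12 months. Without replicate 7, 14 of 15 were negative (median -0.65) and 4 were lower at an unadjusted p under 0.05, against 2.09%. Class I presentation did not lean to a side, with 12 positive and 9 negative values among 21 genes (median 0.06). B2m, the light chain gene of class I, was at 3365, 3262 and 2572 CPM and at 2382, 2422 and 2470 CPM, whereas Tap1, the peptide transporter gene, overlapped with higher values at 11-12 months (50.2 to 194 and 189 to 303 CPM).

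Sensors of microbial products had 18 negative and 8 positive values among 26 of 35 genes (median -0.42, and -0.21 without replicate 1 at 5-6 months). At an unadjusted p under 0.05 with a fold over 1.5, 3 of the 26 were lower and 1 was higher, against 1.71% and 2.66% of all genes. The list summed to 4019 to 4681 CPM at 5-6 months and to 3106 to 3333 CPM at 11-12 months, without overlap. Tlr7, the receptor gene for single-stranded RNA, was at 134, 32.6 and 118 CPM and at 26.6, 29.6 and 25.1 CPM, so that replicate 2 at 5-6 months was close to the older libraries. Clec4a1, which encodes a C-type lectin receptor, was at 346, 279 and 372 CPM and at 198, 223 and 158 CPM. Among cytokine receptors, Il6ra, the receptor gene for interleukin-6, was at 589, 613 and 332 CPM at 5-6 months and at 294, 210.0 and 302 CPM at 11-12 months, and Tnfrsf1b, which encodes TNF receptor 2, was at 606 to 764 CPM and at 249.6 to 553 CPM. The cytokine and NF-kB list was nearly even, with 15 positive and 17 negative values (median -0.15). Csf1, Il1r2 and Mif passed the filter through the older WT group alone, and 12 of the other 29 were positive (median -0.21).

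The chemokine gene Cxcl2, whose product attracts neutrophils, was at 674, 532 and 277 CPM at 5-6 months and at 1431, 1712 and 343 CPM at 11-12 months. Replicate 7 lay among the younger libraries. The log2 fold change was 1.26 (SE 0.42, edgeR adjusted p = 0.941) with it and 1.68 (adjusted p = 0.086) without it. Ccl6 was at 1352, 1248 and 1118 CPM and at 1688, 1666 and 1936 CPM without overlap, and Ccl5 at 491 to 689 CPM and 712 to 1217 CPM. Cxcr4, a receptor gene that retains cells in the marrow, was at 196 to 335 CPM and at 67.6 to 182 CPM. In the same libraries as the high Cxcl2 values, replicates 2 and 4 at 11-12 months, the neutrophil markers were also highest, and their part in the difference was not tested.

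The genes of the NADPH oxidase and of granules had 14 positive and 3 negative values among 17 of 18 (median 0.42), and summed to 21420 to 23850 CPM at 5-6 months and to 24500 to 31390 CPM at 11-12 months, a sum that is mostly Lyz2. Rac2, the GTPase of the oxidase, was at 429, 542 and 594 CPM and at 860.2, 672 and 755 CPM. Ncf4, which encodes the p40phox subunit, was at 84.2 to 197 CPM and at 176 to 559.7 CPM, highest in replicate 7.

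Immediate early genes, which respond to stimuli within minutes and also to the handling of tissue, mostly had small negative log2 fold changes. Egr1 was at 536, 656 and 669 CPM at 5-6 months and at 356, 462 and 175 CPM at 11-12 months. Fosb was at 671, 646 and 591 CPM and at 469.7, 309 and 451 CPM, and Jun at 1225, 1430 and 1117 CPM and at 976, 1015 and 779.8 CPM. Of 23 of 24 genes that passed the filter, 22 had negative log2 fold changes, with a median of -0.32, and none was called. Egr2 passed through the younger WT group alone, so that its sign was fixed, and 21 of the other 22 were negative (median -0.32). The summed CPM of the list were 31620, 27560 and 25670 at 5-6 months and 22730, 25590 and 16610 at 11-12 months, so the highest older and the lowest younger library differed by little and replicate 7 was lowest. Without replicate 7 the median was -0.30, with 19 of 23 negative. The inducible heat shock genes Hspa1b and Hspa1a, which are near-identical copies whose reads cannot be assigned with certainty, were at 205 to 289 and 470.0 to 784 CPM at 5-6 months and at 35.9 to 130.5 and 106 to 528 CPM at 11-12 months. The heat shock list had 8 positive and 7 negative values.

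Type I interferon response genes mostly had positive log2 fold changes, and none was called. Slfn1, a member of the Schlafen family, was at 37.3, 36.2 and 6.98 CPM at 5-6 months and at 88.3, 83.9 and 102 CPM at 11-12 months, without passing the test. Rsad2, the gene for viperin, overlapped (28.5 to 89.0 and 88.1 to 143 CPM). Replicate 7 was the highest library for both genes. Of 43 of 55 type I interferon response genes, 29 were positive (median 0.37, and 0.16 without replicate 2 at 11-12 months), and the summed CPM of 5999 to 8234 at 11-12 months overlapped with those of 5742 to 6636 at 5-6 months. Isg20 passed the filter through the younger WT group alone, and 29 of the other 42 were positive (median 0.38). The interferon-gamma list was even, with 7 positive and 8 negative values, and Gbp3, a guanylate-binding protein gene, was at 1.24 to 15.1 CPM and at 23.2 to 51.9 CPM.

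Genes of NK cells were detected in every WT library. Their 18 markers, which all passed the filter, summed to 3577, 3065 and 3160 CPM at 5-6 months and to 4627, 5827 and 2682 CPM at 11-12 months, and 12 of the 18 had positive log2 fold changes (median 0.40), none at an unadjusted p under 0.05 with a fold over 1.5. The median moved with single libraries, to 0.087 without replicate 4 and 0.23 without replicate 2 at 11-12 months, and to 0.68 with 16 of 18 positive without replicate 7. Klra8 and Klra9 passed the filter through the older WT group alone, so that their sign was fixed, and 10 of the other 16 were positive (median 0.40). Klra4, a receptor gene of the Ly49 family with close paralogs, was at 27.4, 75.1 and 75.4 CPM and at 101, 131 and 269 CPM, and Txk, which encodes a kinase of lymphocytes, at 18.5 to 51.1 and 73.9 to 142 CPM. Il2rb, a chain of the interleukin-2 receptor, overlapped (209 to 308 and 238 to 527 CPM). Of 18 T cell markers 4 passed the filter, and Cd8a and Cd8b1 were at 0 in all 6 libraries. Sums of the other markers were low or overlapped between the ages, at 344.4 to 2805 CPM for B and plasma cells, 612.9 to 1014 CPM for oligodendrocytes, 306.1 to 529.1 CPM for neurons, 206.7 to 520.7 CPM for endothelium and pericytes, 111.7 to 199.2 CPM for astrocytes, 11.87 to 353.2 CPM for choroid plexus, 30.11 to 204.3 CPM for mast cells and basophils, 2.719 to 31.07 CPM for red blood cells and 0 to 49.94 CPM for platelets.

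**Figure D3:**
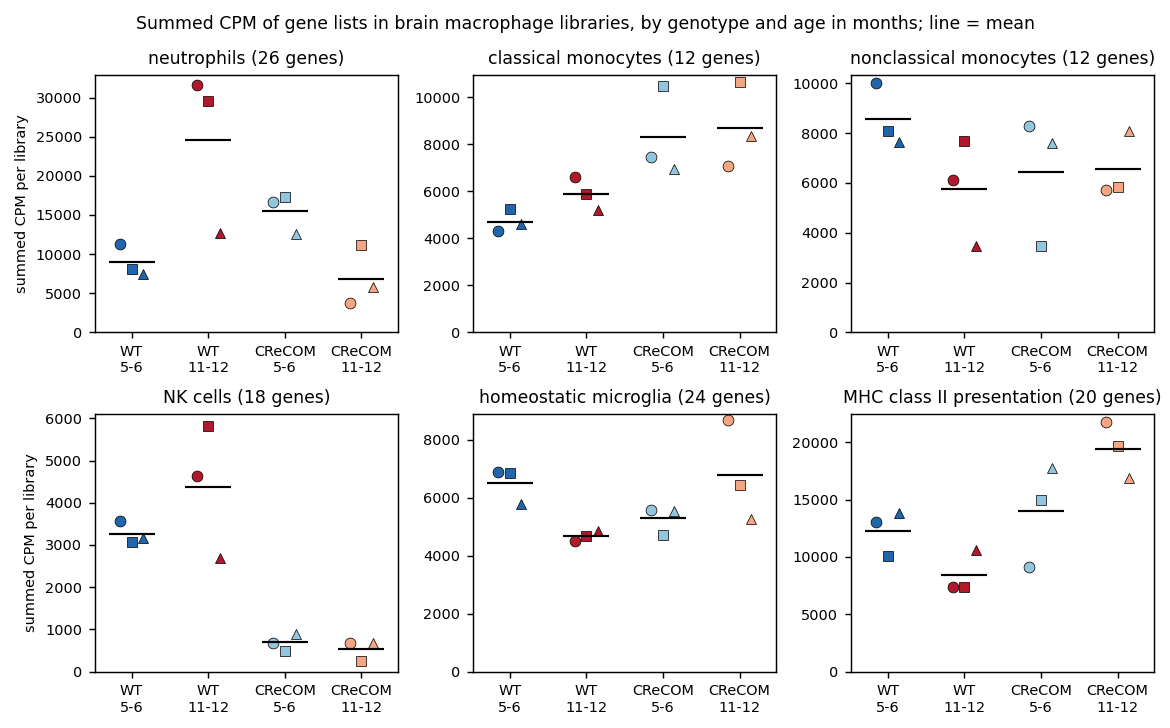
Summed CPM of 6 gene lists in each macrophage library of WT and CReCOM mice at 5-6 and 11-12 months; points are libraries and lines are means of 3. In WT mice the neutrophil sums do not overlap between the ages (7458 to 11250 and 12710 to 31550 CPM) and neither do the homeostatic microglia sums (5793 to 6892 and 4516 to 4850 CPM). The latter are mostly Cst3, Csf1r, Selplg and Cx3cr1 in WT mice, each of which overlaps between the ages. Nr4a1 is the largest part of the nonclassical monocyte sum in every WT library but replicate 7 at 11-12 months.

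The lists of cell metabolism and upkeep described here had medians from -0.06 (lysosome) to 0.27 (cell cycle), and several of their sums did not overlap between the ages. The summed CPM was 1452 to 1719 at 5-6 months and 1799 to 2013 at 11-12 months for autophagy, 1775 to 1885 and 2062 to 2340 for glycolysis, 1494 to 1613 and 1661 to 2343 for the cell cycle, and 13730 to 14020 and 12630 to 13580 for the lysosome. Autophagy genes had a median log2 fold change of 0.08, which was -0.079 without replicate 6 at 5-6 months and -0.027 without replicate 2 at 11-12 months, and Lamtor1, a scaffold gene of the lysosomal mTOR complex, was at 92.2, 104 and 116 CPM and at 184, 191 and 305 CPM, and Map1lc3b, the LC3 gene, at 178, 184 and 105 CPM and at 244, 307 and 337 CPM. Nfe2l2, which encodes the antioxidant regulator NRF2, was at 248, 298 and 363 CPM at 5-6 months and at 69.0, 185 and 121 CPM at 11-12 months. Ftl1, the ferritin light chain gene, was at 117 to 186 CPM and at 189.7 to 307 CPM. The glycolysis genes Ldha (72.5 to 140.4 and 152 to 199 CPM) and Pfkfb4 (16.7 to 65.5 and 88.2 to 124 CPM) did not overlap, and 12 of 17 genes of that list were positive (median 0.25, but -0.0042 without replicate 4 and 0.45 without replicate 7 at 11-12 months). Genes of the lysosome (37 genes, median -0.06) and the cytosolic ribosome (61 genes, median -0.02) were centered near 0, and those of oxidative phosphorylation (62 genes) had a median of 0.15. Rps24 and Rpl22, ribosomal protein genes whose processed pseudogenes can share reads, were lower in every older library, at 848 to 961 and 669.7 to 724 CPM at 5-6 months and at 504 to 622 and 346 to 562 CPM at 11-12 months. Of 29 cell cycle genes 22 were positive (median 0.27, from 0.16 to 0.46 when 1 WT library was left out), among them Top2a, the topoisomerase of dividing cells, at 51.4, 159 and 117 CPM and at 198, 161 and 406 CPM. Kif11 and Ccna2 passed the filter through the older WT group alone, so that their sign was fixed, and 20 of the other 27 were positive (median 0.27).

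The question whether these age differences are particular to WT mice was addressed by testing the age difference in WT against that in CReCOM macrophages. In CReCOM macrophages no gene was called between the ages, with 168 genes at an unadjusted p under 0.05. The difference between the genotypes was called for 6 genes, 0.0957% of those tested, with 289 at an unadjusted p under 0.05. Both unadjusted counts are under a share of 0.05 of the 6272 genes, which is reached when no gene differs. C1qa was at 160.0, 170.8 and 253.4 CPM at 5-6 months and at 443.5, 434.5 and 378.4 CPM at 11-12 months in CReCOM mice, the reverse order to WT. Its log2 age difference was 3.66 units lower in WT than in CReCOM mice (difference -3.66, SE 0.55, edgeR adjusted p = 0.0257). S100a9 was at 5082, 5317 and 3752 CPM at 5-6 months and at 1095, 3244 and 1656 CPM at 11-12 months in CReCOM mice, and S100a8 at 4257 to 6364 and 1233 to 4014 CPM. Their age differences were 2.74 (SE 0.47, adjusted p = 0.0418) and 2.65 (SE 0.49, adjusted p = 0.0482) higher in WT mice. Both calls were lost with another filter on low values: with filterByExpr the adjusted p was 0.245 for S100a9 and 0.552 for S100a8, and without a filter it was 0.431 and 0.610.

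Ngp was at 1798 to 2027 CPM at 5-6 months and at 426.3 to 1270 CPM at 11-12 months in CReCOM mice, and Lcn2 at 217.3 to 342.1 and 55.7 to 159.9 CPM. The differences from WT were 2.70 (SE 0.47, adjusted p = 0.0418) for Ngp and 3.60 (SE 0.65, adjusted p = 0.0434) for Lcn2. Klra4 was at 8.22, 10.3 and 12.5 CPM at 5-6 months and at 0, 0.614 and 0 CPM at 11-12 months in CReCOM mice, so its adjusted p of 0.0434 rests on a group close to the floor, and limma gave it an adjusted p of 0.602. The neutrophil list had a median log2 fold change of 1.52 in WT and of -1.10 in CReCOM macrophages, and the homeostatic microglia list of -0.87 and 0.51. In the CReCOM libraries the red blood cell markers reached 16200 CPM in replicate 5 at 5-6 months against at most 49.83 CPM elsewhere, and the choroid plexus markers 3255 CPM in replicate 4 at 11-12 months. The part of these libraries in the test was not examined beyond leaving them out. The NK list summed to 245.7 to 896.1 CPM in CReCOM libraries, below every WT library. The number of genes with a genotype-dependent age difference was sensitive to single libraries: it was 0 without WT replicate 2 at 11-12 months, WT replicates 2 or 6 at 5-6 months or CReCOM replicates 3 or 4 at 5-6 months, 1 without WT replicate 4 or CReCOM replicates 1 or 4 at 11-12 months, 3 without WT replicate 1 at 5-6 months, 7 without CReCOM replicate 5 at 5-6 months, 9 without WT replicate 7 and 12 without CReCOM replicate 3 at 11-12 months.

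**Figure D4:**
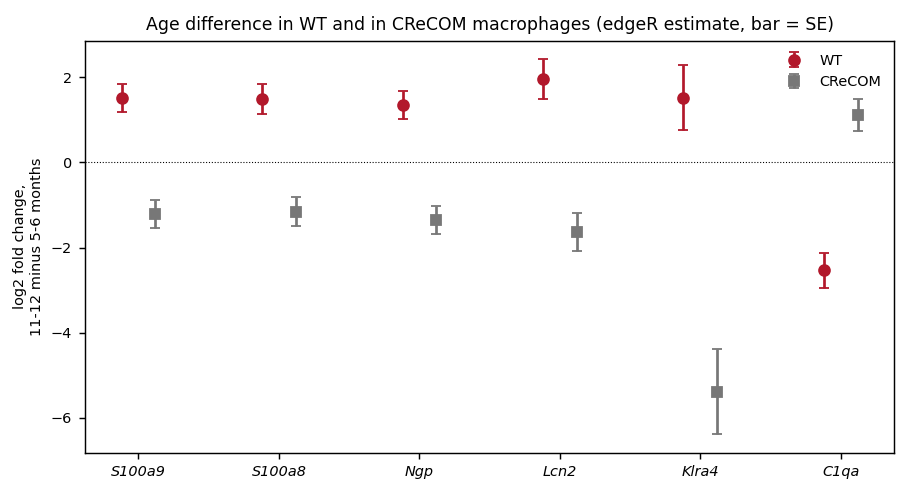
Log2 fold change between 11-12 and 5-6 months in WT (circles) and CReCOM (squares) macrophages for the 6 genes whose age difference differed between the genotypes, with SE bars from edgeR (3 libraries per group). WT values are above 0 for S100a9, S100a8, Ngp, Lcn2 and Klra4 and below 0 for C1qa (-2.54), and CReCOM values lie on the other side.

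Microglia sorted from WT brains (CD45lo, 4 libraries at each age) were tested in the same way in their own table, where 1 of 8462 genes was called, higher with age. C1qa was at 5637 ± 318 CPM (SD, n = 4) at 5-6 months and 5578 ± 735.5 CPM at 11-12 months in microglia, with a log2 fold change of -0.02. P2ry12 was at 2107 ± 221 and 1906 ± 225 CPM (SD, n = 4 each). S100a9 was at 0.140 ± 0.177 CPM at 5-6 months and 16.1 ± 19.5 CPM at 11-12 months, and Slpi was at 0 in both. The difference between the cell types was not tested.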

How the data were processed

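RNA-seq was carried out on CD11b+CD64+CD45hi macrophages sorted from single mouse brains, with QuantSeq 3′ libraries from small amounts of RNA. The authors demultiplexed and trimmed the reads (bcl2fastq, bbduk), aligned them with STAR to mm10 (GRCm38) and deposited HTSeq counts per gene. The authors also deposited CPM values, which equal the counts scaled to the library total (checked) and are printed here. Tool versions, annotation release and whether counting used strand are not given in the sources used here. Molecular identifiers are not mentioned, so PCR copies may be counted.

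The 12 macrophage libraries were fitted together, with a mean per genotype and age (edgeR 4.0.16 quasi-likelihood test, TMM factors, R 4.3.3), and p-values were adjusted over 6272 genes. The thresholds of filter and calls (adjusted p under 0.1, fold over 1.5) follow the study's methods, which used DESeq2, with the filter taken over the 4 groups fitted here. DESeq2 1.42.0 and limma 3.58.1 on log2(CPM + 1) were alternatives. Microglia were fitted separately. Each library is 1 mouse, with 3 mice per macrophage group. The p-values for macrophages use a spread estimated from all 12 libraries and in part shared among genes, so WT mice alone did not set it. Depth was 4045036 to 5901911 counts per library; floors cover counting error only.

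Genes were named if called or, up to 10 per direction, by the smallest p among genes whose ages did not overlap, by the smallest p (up to 4 genes) within the lists described, of 48 summarised, as targeted or sort genes, and where the age difference depended on genotype; others are said to be chosen after their values were seen. Members and lists were chosen with earlier results of these data known. The fit of 6 WT libraries alone, list counts without replicate 7 at 11-12 months, and list counts without members that passed the filter through 1 WT group alone, were chosen after seeing the data. Gene positions are from GENCODE vM21, and promoters from RefSeq, whose table holds no entry for C1qa.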

Additional observations from a re-analysis of the deposited data

Results flagged for a closer look

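There were 6 genes that differed between WT and CReCOM macrophages in how their level differed between 11-12 and 5-6 months, by edgeR's test of the difference itself (adjusted p 0.0257 to 0.0482). On the log2 scale the age difference in WT minus that in CReCOM macrophages was -3.66 for C1qa, 2.74 for S100a9, 2.70 for Ngp, 3.60 for Lcn2, 6.92 for Klra4 and 2.65 for S100a8. For Klra4 the CReCOM group at 11-12 months held almost no counts, so the size of its value depends on the prior count of the fit.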

How the results depend on the processing

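The count of genes called higher was 0 in edgeR, 38 in DESeq2, 12 without a filter on low values and 0 to 6 when each WT library was left out. An unadjusted p under 0.05 with a fold over 1.5 gave 167. The count called lower was 1 in edgeR, 15 in DESeq2, 6 without a filter, 0 in the fit of the 6 WT libraries alone and 0 to 1 when each library was left out. The same unadjusted p and fold gave 107. The count of genes whose age difference depended on genotype was 6 in edgeR, 49 in DESeq2, 26 without a filter, 0 to 12 when each library was left out, and 289 at an unadjusted p under 0.05 without a fold threshold. RLE factors, library sizes alone, filterByExpr and limma gave counts within 1.5 times of these, but for the genotype difference filterByExpr lost S100a8 and S100a9 and limma lost Klra4. C1qa stayed lower under every alternative run but lost its call in 6 of them, as given above. With each WT library left out in turn, the log2 fold change of F13a1 ranged from -0.054 to 0.18 and that of Ptprc from -0.19 to 0.064, and both changed sign. The medians of the complement, glycolysis, autophagy, MHC class I, heat shock, interferon-gamma, chemokine, cytokine and NF-kB, pan macrophage, sort marker and ribosome lists also changed sign, and that of oxidative phosphorylation ranged from 0.029 to 0.22. The cause of these changes was not tested. No paired analysis was possible because each mouse gave macrophages at 1 age only. The number 2, which occurs in the WT groups at 11-12 months (replicates 2, 4 and 7) and 5-6 months (replicates 1, 2 and 6), names different mice. Genes near 3 counts per library are at the limit of the depth.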
